A study of Mus musculus with 30 samples.

Results

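The 33 genes described here are expressed in T cells, natural killer (NK) cells, B cells and plasma cells, the lymphocytes that reside in or pass through white fat. They were taken as a list of symbols, drawn up with earlier results of these data known, and were found through a gene name table, which gave a symbol to 33501 of the 35120 Ensembl identifiers in the count table. All 33 had a row there. They fall into 8 classes: the T cell receptor complex (6 genes), T cell coreceptors and costimulation (6), naive and memory homing (2), regulatory T cells (4), type 2 lymphoid cells (2), NK and cytotoxic cells (7), B cells (5) and plasma cells (1).

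The libraries were strand-specific mRNA libraries from white fat of Mus musculus, made to study the loss of β-catenin, the protein encoded by Ctnnb1. Minced fat was digested with collagenase and spun, so that buoyant adipocytes were parted from pelleted stromal-vascular cells (SVC), the mixed pellet of preadipocytes, vessel cells and leukocytes. Male control SVC (genotype Ctnnb1flfl) had 3 libraries and male SVC labelled Ctnnb1KO had 4. Adipocytes had 6 libraries of male Ctnnb1flfl, 5 of male Ctnnb1KO, 6 of female Ctnnb1flfl and 6 of female Ctnnb1KO. There was no female SVC library in the files. Controls carry the floxed allele too, and the design text calls the knockout Ctnnb1AdKO and the controls sex- and age-matched, without stating the age, the Cre line used or which exons were deleted. Epididymal and posterior subcutaneous fat are both named for every library, females included. Replicate numbers are not stated to be separate mice, so p-values measure the spread between libraries, which may be technical. In bulk RNA, fewer cells of a type and less RNA per cell cannot be told apart.

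Total counts lay between 20484836 and 22209603 per library. Summed levels of 12 adipocyte markers were 62172 to 104487 CPM (counts scaled to the library total) in the adipocyte libraries and 1172 to 3422 CPM in SVC, and the pan-leukocyte gene Ptprc reached 300.3 to 494 CPM in SVC. Ctnnb1 itself was not lower under the knockout label. It lay at 308 to 368 CPM in male knockout adipocytes against 308 to 341 in controls, at 283 to 367 against 291 to 359 in females, and at 353 to 748 against 442 to 553 in SVC (edgeR adjusted p = 0.919, 0.670 and 0.979). A whole-gene count need not fall when some exons are removed. The counts used are per gene, so whether this holds here was not tested. Genotype is used as labelled. A pair of SVC libraries stood apart. Transcripts of epididymal epithelium (9 genes) summed to 5552, 43.4 and 76.3 CPM in control replicates 1 to 3 and to 39.0, 12.7, 0.391 and 4.99 CPM in knockout replicates 1 to 4. Transcripts of spermatids (8 genes) summed to 3876 CPM in knockout replicate 4, 615 CPM in control replicate 1, 122 CPM in control replicate 2 and at most 25.5 CPM elsewhere. Both lists were drawn up after the values were seen, and results that rest on these libraries are given with and without them.

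T cells recognise antigen through a receptor whose signalling chains are the CD3 proteins and CD247, while B cells use the CD79 proteins for the same purpose. NK cells and cytotoxic T cells kill with perforin and granzymes. Visceral fat is known for regulatory T cells that carry FOXP3 and the IL-33 receptor ST2 (encoded by Il1rl1), and for type 2 innate lymphoid cells that depend on GATA3, both of which temper inflammation there.

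Because all 33 genes were higher in SVC than in adipocytes, the DNA before their starts was searched for short motifs of lymphocyte factors. Windows from RefSeq in build GRCm38.p6 matched 23 of the 33 genes by symbol (26 windows), and the 250 bases before each start were searched on both strands. Unmatched were Cd2, Cd4, Cd8b1, Cd28, Trac, Trbc2, Ccr7, Icos, Ms4a1 and Cd79b. The E-box CAGGTG, bound by E proteins, lay in windows of 10 of the 23 genes and in 17.2% of all 32851 windows. The RUNX core TGTGGT lay in windows of 7 genes and in 14.0% of all windows. In the NK and cytotoxic class it was found for 6 of 7 genes, all but Tbx21. The ETS core AGGAAGT lay in windows of 9 genes (7.69% of all windows). The core CTTTGA of TCF/LEF, the DNA-binding partners of β-catenin, lay in the window of Cd3d alone among the members (13.8% of all windows). The other motifs searched were the EBF motif CCCNNGGG (Prf1 and Cd22, 11.8% of all windows), the octamer ATTTGCAT (Il1rl1, 1.60%), the site AGATAA of GATA factors (Cd3g, Foxp3 and Il1rl1, 9.99%) and the core promoter motif TATAAA (Foxp3, 12.4%). No motif contains another. They were picked with the windows in view, and a match is a description of the letters only. The windows of Cd3d and Cd3g, neighbours on chromosome 9 read from opposite strands, are shown with the E-box in capitals, as CAGGTG or its complement. Those of Klrb1c, Ncr1, Gzma and Prf1 are shown with the RUNX core in capitals, as TGTGGT or its complement. Each runs 5′ to 3′ toward its start.
Cd3d (GRCm38.p6 chr9:44981536-44981785, plus strand): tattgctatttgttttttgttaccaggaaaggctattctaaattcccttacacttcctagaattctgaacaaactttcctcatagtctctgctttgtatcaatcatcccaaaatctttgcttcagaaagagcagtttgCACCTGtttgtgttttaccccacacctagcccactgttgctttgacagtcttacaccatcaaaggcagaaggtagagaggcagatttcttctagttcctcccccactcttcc
Cd3g (GRCm38.p6 chr9:44980432-44980681, minus strand): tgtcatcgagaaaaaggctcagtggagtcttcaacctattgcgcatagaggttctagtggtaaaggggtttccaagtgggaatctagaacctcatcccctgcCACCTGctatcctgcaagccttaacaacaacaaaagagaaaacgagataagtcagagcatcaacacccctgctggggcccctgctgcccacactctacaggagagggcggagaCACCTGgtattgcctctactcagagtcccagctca
Klrb1c (GRCm38.p6 chr6:128788642-128788891, minus strand): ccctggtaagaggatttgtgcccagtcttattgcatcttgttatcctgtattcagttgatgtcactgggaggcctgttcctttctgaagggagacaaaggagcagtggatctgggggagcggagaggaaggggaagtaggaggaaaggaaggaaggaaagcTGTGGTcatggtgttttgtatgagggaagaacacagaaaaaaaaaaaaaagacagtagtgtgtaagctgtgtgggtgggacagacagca
Ncr1 (GRCm38.p6 chr7:4337465-4337714, plus strand): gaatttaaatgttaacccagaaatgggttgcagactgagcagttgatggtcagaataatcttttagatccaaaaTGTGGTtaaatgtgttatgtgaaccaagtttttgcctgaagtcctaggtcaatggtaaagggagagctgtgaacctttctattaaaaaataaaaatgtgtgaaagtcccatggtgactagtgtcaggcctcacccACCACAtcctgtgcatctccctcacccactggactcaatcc
Gzma (GRCm38.p6 chr13:113100982-113101231, minus strand): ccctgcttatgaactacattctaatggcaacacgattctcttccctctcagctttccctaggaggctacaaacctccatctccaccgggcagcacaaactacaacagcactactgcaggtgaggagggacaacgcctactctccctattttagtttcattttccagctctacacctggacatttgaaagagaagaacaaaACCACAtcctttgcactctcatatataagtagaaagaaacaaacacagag
Prf1 (GRCm38.p6 chr10:61297586-61297835, plus strand): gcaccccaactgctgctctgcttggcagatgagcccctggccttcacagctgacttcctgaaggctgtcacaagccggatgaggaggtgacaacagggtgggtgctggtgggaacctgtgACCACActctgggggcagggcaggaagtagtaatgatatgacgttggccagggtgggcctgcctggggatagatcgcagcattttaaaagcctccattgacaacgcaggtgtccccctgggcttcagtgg

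In SVC, the knockout label went with no called change in any of the 33 genes. A gene was called when its adjusted p was below 0.05 in the quasi-likelihood test of edgeR over all 16404 genes tested, and 0% of those genes were called. At an unadjusted p below 0.05 there were 429 genes, 1 of them a member (Klrb1c). DESeq2 called 76 genes (0.463%), no member among them, but Klrb1c had no adjusted p there. Of the members, 27 had negative and 6 positive log2 fold changes, with a median of -0.19 beside 0.04 over all genes tested. In no member did all libraries of 1 genotype lie beyond all of the other. Of all genes tested 3.91% did so, a share so small that its absence among 33 genes does not set the members apart. With SVC control replicate 1 and knockout replicate 4 left out, a choice made after seeing the data, again no member was called.

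**Figure D1:**
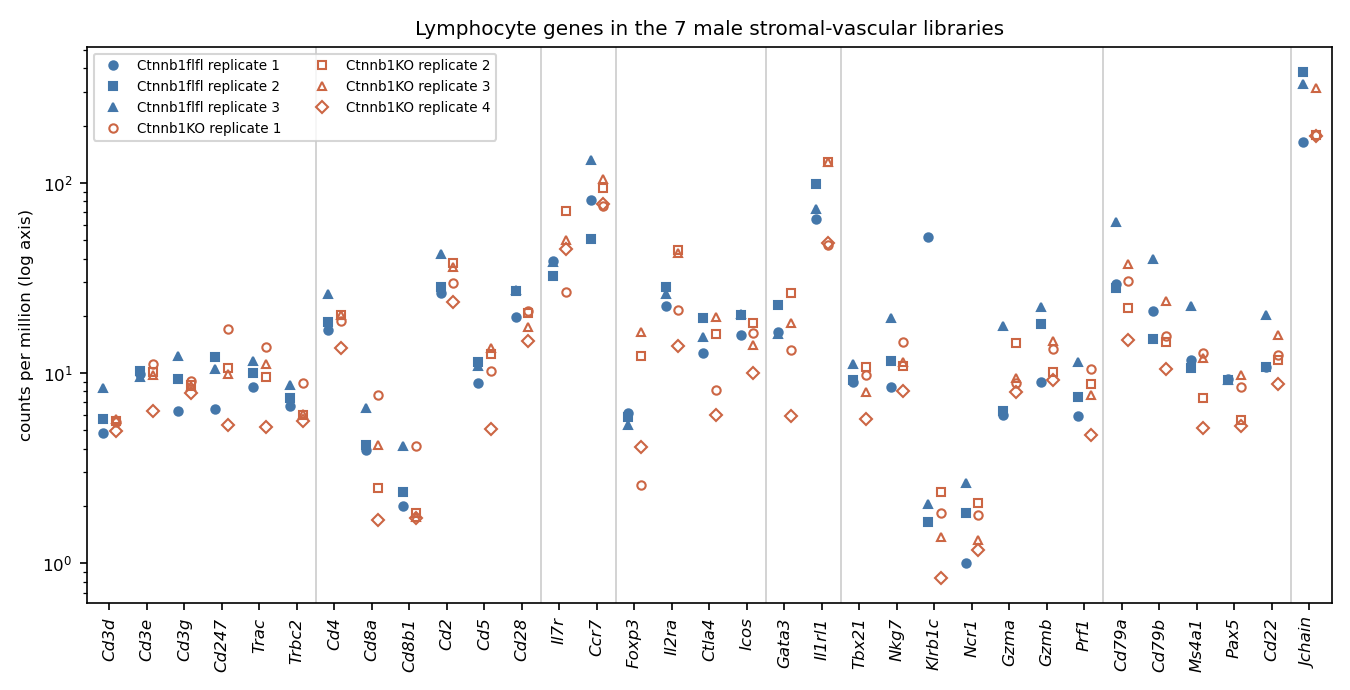
Level of each of the 33 genes in the 7 male SVC libraries, in CPM on a log axis, with filled blue symbols for Ctnnb1flfl and open orange symbols for Ctnnb1KO and grey lines between classes. The groups overlap in every gene, Klrb1c of control replicate 1 stands alone at 51.6 CPM, and knockout replicate 4 is the lowest library in 23 genes.

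The summed level of the members overlapped between the labels. It was 717, 936 and 1077 CPM in control replicates 1 to 3 and 687, 857, 1006 and 565 CPM in knockout replicates 1 to 4. Control replicate 3 held the highest value in 18 of the 33 genes and knockout replicate 4 the lowest in 23. Other leukocyte levels were also uneven: the summed level of 15 macrophage and monocyte genes was 11657 CPM in control replicate 3 and 6085 and 6115 CPM in the other controls, and 6776 to 11332 CPM in knockouts. Ptprc, the gene of the leukocyte phosphatase CD45, was at 305, 327 and 467 CPM in controls and 300.3, 494, 441 and 319 CPM in knockouts, so it did not follow the members' order in every library. Knockout replicate 4 also had 27891 genes with a count, and control replicate 1 had 27106, against 22452 to 24890 in the other 5. The part of these differences in the members' levels was not tested.

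Summed levels of mesothelial and adipocyte genes, like those of the epididymal transcripts above, did not overlap between the genotype labels in SVC. The 7 mesothelial genes, which mark the lining of visceral fat, summed to 252 to 516 CPM in controls and 101 to 146 CPM in knockouts, and all 7 had negative fold changes with none called. The 12 adipocyte markers summed to 1172 to 2246 CPM in controls and 2328 to 3422 CPM in knockouts, all 12 with positive fold changes and none called. Their part in the lymphocyte values was not tested.

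Genes of the T cell receptor complex had nearly equal levels under both labels. Cd3e, a signalling chain of the receptor, was at 9.86, 10.3 and 9.54 CPM in the control replicates and at 11.2, 10.2, 9.71 and 6.30 CPM in the knockouts. Knockout replicate 4 was the low library and the other 6 lay close together. The log2 fold change was -0.05 (SE 0.25, edgeR adjusted p = 0.986). Trac, the constant part of the receptor α chain, was at 8.43, 10.0 and 11.6 CPM in controls and 13.6, 9.52, 11.1 and 5.22 CPM in knockouts (log2 -0.01, SE 0.35). The knockouts thus held both the highest and the lowest value. Trbc2, a constant part of the β chain that is nearly identical to Trbc1, so that reads may be split between them, ranged from 6.67 to 8.70 CPM in controls and from 5.60 to 8.82 CPM in knockouts. The CD3 chains Cd3d and Cd3g had log2 fold changes of -0.21 (SE 0.30) and -0.12 (SE 0.30), and the ζ chain Cd247 had 0.15 (SE 0.43). Cd247 reached 17.0 CPM in knockout replicate 1, which also had the highest Cd3e, Trac and Trbc2.

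Of the coreceptors, Cd4 marks helper and regulatory T cells, and Cd8a and Cd8b1 encode the chains of the cytotoxic coreceptor. Cd4 was at 16.9, 18.7 and 26.1 CPM in controls and 18.9, 20.1, 20.3 and 13.5 CPM in knockouts (log2 -0.17, SE 0.27). Cd8a was at 3.95, 4.16 and 6.51 CPM in controls and 7.67, 2.50, 4.20 and 1.68 CPM in knockouts (log2 -0.30, SE 0.55). Cd8b1 was at 4.13 CPM in knockout replicate 1, 1.73 to 1.84 CPM in the other knockouts and 2.00 to 4.14 CPM in controls. Knockout replicate 1 and control replicate 3 were the high libraries for both CD8 chains, and knockout replicates 2 and 4 lay below all controls. Cd28, the receptor of the second signal for T cell activation, had the lowest unadjusted p of this class, with 19.7 to 27.4 CPM in controls and 14.8 to 21.3 CPM in knockouts (log2 -0.40, SE 0.24, edgeR adjusted p = 0.968). The adhesion receptor Cd2 and the inhibitory receptor Cd5 had log2 fold changes of -0.02 (SE 0.29) and 0.02 (SE 0.36).

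Il7r, the receptor chain for the survival cytokine IL-7, was at 38.7, 32.3 and 38.2 CPM in controls and 26.6, 70.8, 49.9 and 45.2 CPM in knockouts. Of the knockouts 3 lay above every control and replicate 1 lay below all of them, giving a log2 fold change of 0.44 (SE 0.34, edgeR adjusted p = 0.968). Ccr7, which guides naive T cells and mature dendritic cells to lymph nodes, ranged from 50.5 to 132 CPM in controls and from 75.6 to 105 CPM in knockouts (log2 -0.01, SE 0.37). Ccr7 is shared with dendritic cells, whose 11 listed genes summed to 7478 to 15230 CPM in controls and 9505 to 14128 CPM in knockouts.

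Of the 6 genes of regulatory T cells and type 2 lymphoid cells, 3 (Foxp3, Il2ra and Il1rl1) parted knockout replicates 2 and 3 from 1 and 4, with the controls between. Foxp3, the defining transcription factor of regulatory T cells, was at 6.19, 5.85 and 5.30 CPM in controls and 2.57, 12.3, 16.4 and 4.10 CPM in knockouts. Knockout replicates 2 and 3 lay above all controls and replicates 1 and 4 below all of them. The log2 fold change was 0.65 (SE 0.64, edgeR adjusted p = 0.968), the highest of the 33. Il2ra, the high-affinity IL-2 receptor chain, showed the same order, with 22.6, 28.2 and 25.9 CPM in controls and 21.4, 44.5, 42.5 and 13.9 CPM in knockouts. Il1rl1, the IL-33 receptor, did so too, with 64.7, 98.2 and 73.3 CPM in controls and 47.0, 129, 128 and 48.2 CPM in knockouts. In all 3 genes knockout replicates 2 and 3 were the highest libraries and knockout replicates 1 and 4 the lowest. Of the other classes, Cd3d, Cd4, Cd2, Cd5, Il7r, Ccr7, Gzma and Jchain were also higher in knockout replicates 2 and 3 than in 1 and 4. In none of these did all controls lie between, and the remaining members of those classes did not show this order. Levels of other leukocytes were also higher in knockout replicates 2 and 3 than in 1 and 4. In knockout replicates 1 to 4 the 7 pan-leukocyte genes summed to 1969, 3134, 2767 and 2189 CPM and the 15 macrophage and monocyte genes to 6776, 11332, 9892 and 8306 CPM. The 11 dendritic cell genes summed to 9505, 14128, 12660 and 10545 CPM there. In the controls, replicate 3 was high for these lists (3118 CPM of pan-leukocyte genes against 1739 and 1858 CPM) and not for Foxp3. Granulocyte and mast cell genes summed to 205, 300, 243 and 186 CPM in knockout replicates 1 to 4 and 205, 248 and 264 CPM in controls. The part of all these lists in the division of the knockouts was not tested.

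The ratio of Foxp3 to Cd3e, a gene that varied less, was 0.628, 0.568 and 0.556 in control replicates 1 to 3 and 0.230, 1.21, 1.68 and 0.652 in knockout replicates 1 to 4. By this ratio knockout replicate 4 lay above all controls, and replicate 1 alone lay below them. In CPM, Ctla4, an inhibitory receptor of regulatory and activated T cells, was lower in knockout replicates 1 and 4. Gata3, the factor of type 2 cells, was also lower there. Ctla4 was at 8.18 and 6.02 CPM there, against 16.0 and 19.7 CPM in replicates 2 and 3 and 12.7 to 19.5 CPM in controls. Gata3 was at 13.3 and 5.97 CPM there, against 26.2 and 18.3 CPM in replicates 2 and 3 and 16.1 to 22.8 CPM in controls. Icos, a costimulatory receptor, did not follow this order, with 10.0 to 18.4 CPM in knockouts and 15.9 to 20.4 CPM in controls. No group in the labels parts knockout replicates 2 and 3 from 1 and 4, so this division was described after the values were seen and was not tested.

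**Figure D2:**
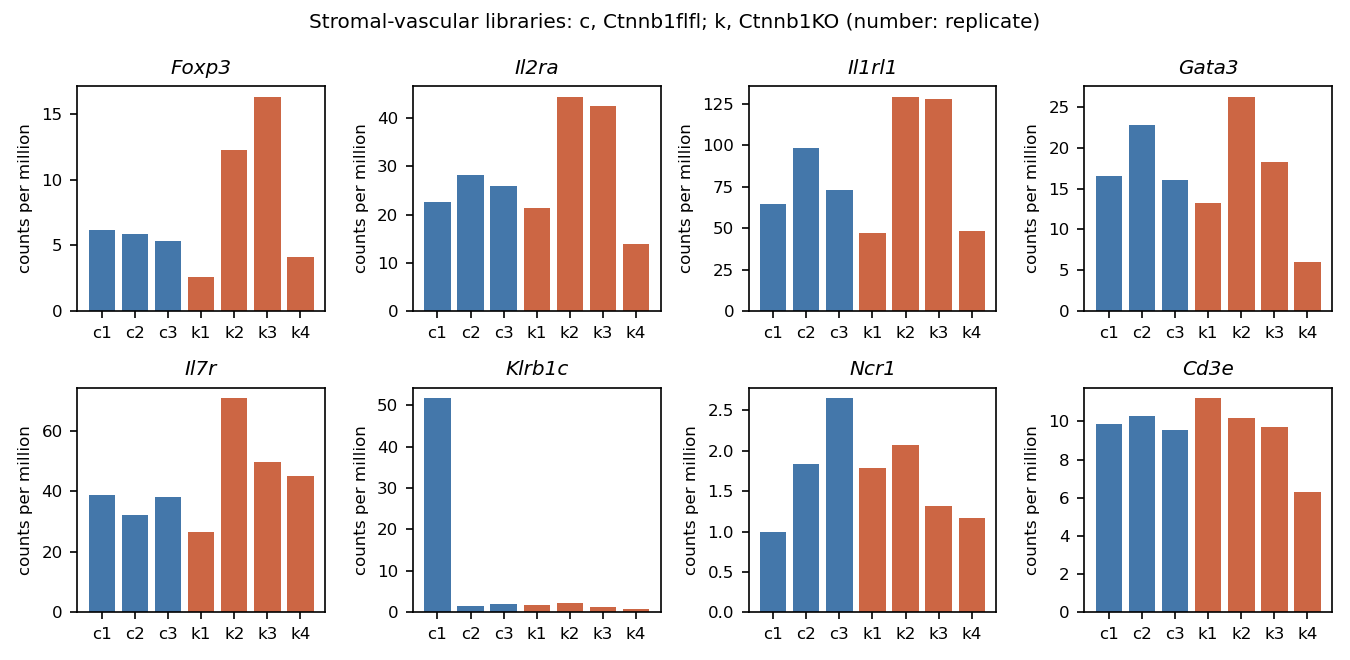
Level in CPM of 8 genes in each SVC library, with blue bars for the 3 Ctnnb1flfl libraries (c1 to c3) and orange bars for the 4 Ctnnb1KO libraries (k1 to k4), each panel on its own axis from 0. Foxp3, Il2ra and Il1rl1 are highest in k2 and k3, Klrb1c is at 51.6 CPM in c1 and at most 2.36 CPM elsewhere, and Ncr1 is at 1.00 CPM in c1.

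Among the NK and cytotoxic genes the lowest unadjusted p belonged to Klrb1c, the gene of the receptor NK1.1, and rested on 1 library. It belongs to a family of similar neighbours, among which the authors' counting may split reads. Klrb1c was at 51.6, 1.64 and 2.05 CPM in controls and 1.84, 2.36, 1.37 and 0.840 CPM in knockouts. Control replicate 1 stood far above the other 6, which overlapped between the labels. The log2 fold change of -3.38 (SE 1.23, unadjusted p = 0.0303, edgeR adjusted p = 0.968) became -0.24 without control replicate 1, -1.46 with the replicate number as a block, and 0.02 without control replicate 1 and knockout replicate 4. Ncr1, which encodes the NK receptor NKp46, was lowest in that library, at 1.00 CPM, against 1.84 and 2.65 CPM in the other controls and 1.17 to 2.07 CPM in knockouts. Control replicate 1 is the library with 5552 CPM of epididymal transcripts, and their part in Klrb1c was not tested.

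The killing genes were less uneven. Gzma, a granzyme, was at 6.05, 6.33 and 17.6 CPM in controls and 8.86, 14.3, 9.47 and 7.98 CPM in knockouts. Its log2 fold change was -0.00145 (SE 0.51) with all libraries and 0.85 without control replicate 3, which held the highest value. Gzmb, another granzyme, ranged from 8.96 to 22.3 CPM in controls and from 9.19 to 14.7 CPM in knockouts (log2 -0.48, SE 0.37, edgeR adjusted p = 0.968). Prf1, which encodes perforin, had a log2 fold change of -0.07 (SE 0.39). Nkg7, a protein of cytotoxic granules, and Tbx21, the factor T-bet, had -0.25 (SE 0.38) and -0.17 (SE 0.30). All 7 genes of this class had negative fold changes with all libraries and none was called. The signs were not stable: without control replicate 3 the values were positive for Gzma, Prf1 (0.36), Nkg7 (0.28), Ncr1 (0.28) and Tbx21 (0.04), while that of Gzmb was negative in every alternative.

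All 5 B cell genes also had negative fold changes, from -0.71 to -0.20, with none called. Cd79a, a signalling chain of the B cell receptor, was at 29.3, 28.1 and 62.1 CPM in controls and 30.5, 22.1, 37.2 and 14.9 CPM in knockouts. Ms4a1, which encodes CD20, was at 11.7, 10.6 and 22.5 CPM in controls and 12.7, 7.35, 12.0 and 5.13 CPM in knockouts. Control replicate 3 was the highest library in both and the other controls lay within the range of the knockouts. The log2 fold changes of Cd79a and Ms4a1 were -0.63 (SE 0.44) and -0.71 (SE 0.44), and became -0.02 and -0.14 without control replicate 3. Cd79b, the other signalling chain, went from -0.67 (SE 0.44) to -0.04. Cd22, an inhibitory receptor, went from -0.20 (SE 0.35) to 0.29. Pax5, the factor that keeps B cell identity, was at 9.29, 9.18 and 9.21 CPM in controls and 8.41, 5.65, 9.76 and 5.27 CPM in knockouts (log2 -0.32, SE 0.27, edgeR adjusted p = 0.968).

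Jchain, which encodes the joining chain of IgA and IgM, stood for plasma cells. It was at 165, 382 and 332 CPM in controls and 178, 179, 315 and 176 CPM in knockouts. Control replicate 1 and knockout replicates 1, 2 and 4 formed the low end and the other 3 libraries the high end, so the labels overlapped (log2 -0.46, SE 0.36, edgeR adjusted p = 0.968). Per kilobase of exon, Jchain had the highest level of the 33 genes, 116 ± 45.2 CPM per kb (SD, n = 3) in control SVC. Ccr7 followed at 44.4 ± 20.9, then Cd79a at 27.3 ± 13.2, Cd2 at 18.6 ± 5.02 and Cd79b at 17.7 ± 8.97 CPM per kb. From Ccr7 to Cd79b, neighbours in this order differed by less than the larger SD of the pair. The lowest were Pax5 at 1.04 ± 0.00616 and Ncr1 at 1.19 ± 0.536 CPM per kb.

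Further genes of the same cells gave the same count of calls in SVC. Of 24 other T cell genes none was called and 6 had positive fold changes (median -0.20). Cd40lg, the helper ligand for B cells, was at 2.76, 7.20 and 5.91 CPM in controls and 3.40, 3.11, 2.34 and 1.17 CPM in knockouts (log2 -1.07, SE 0.50, edgeR adjusted p = 0.968). The adaptor gene Sh2d1a had -0.47 (SE 0.31). Lef1, a TCF/LEF factor of T cells, was at 20.0 CPM in control replicate 1 and 25.0 CPM in knockout replicate 4, and at 4.74 to 6.67 CPM in the other 5 libraries. Those are the libraries with epididymal and spermatid transcripts, and Lef1 falls outside the naming rule and was chosen after its values were seen.

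Of 16 other NK and cytotoxic genes 0 were called (median -0.25), led by the receptor gene Klre1 (log2 -0.78, SE 0.35) and the chemokine gene Xcl1 (-0.71, SE 0.34). Of 14 other genes of type 2 and regulatory T cells 0 were called (median 0.05). The receptor gene Tnfrsf9 was at 6.24, 6.19 and 8.89 CPM in controls and 6.75, 12.5, 14.1 and 6.53 CPM in knockouts, with knockout replicates 2 and 3 again the highest. The other of smallest p in that list was Pparg (0.41, SE 0.27), which adipocytes also express.

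Of 17 further B cell genes tested 0 were called, with 2 positive and a median of -0.44. Spib, a transcription factor of B cells and plasmacytoid dendritic cells, had a log2 fold change of -0.65 (SE 0.37), which became -0.16 without control replicate 3. Of 7 other plasma cell genes tested 0 were called (median 0.01). Derl3 and Txndc5, proteins of the endoplasmic reticulum, had the smallest p there, with log2 fold changes of -1.12 (SE 0.56) and -0.28 (SE 0.17). Derl3 was at 11.6, 3.63 and 2.75 CPM in controls and 1.84 to 4.43 CPM in knockouts. Its value became -0.31 without control replicate 1, the library of the epididymal transcripts, and -0.66 without that library and knockout replicate 4.

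Genes of lymph nodes, which can lie in fat pads, were present in SVC. The summed level of 9 stroma and vessel genes was 68.3, 45.2 and 77.0 CPM in controls and 144, 35.5, 70.7 and 22.4 CPM in knockouts. That of the germinal centre list was 144 to 163 CPM in controls and 112 to 171 CPM in knockouts. In male control adipocytes the first list summed to 0.901 to 3.35 CPM and the germinal centre list to 48.5 to 82.7 CPM. The germinal centre sum is therefore not a measure of germinal centres alone. Genes of these lists are not confined to lymph nodes. Cr2 and Fcer2a, in the stroma and vessel list, were also in the list of further B cell genes, so the lists share genes. Within the first list, genes chosen after their values were seen ranged widely: Ccl21a, a chemokine of lymphatic vessels and lymph nodes, was at 9.19 to 117 CPM, and Madcam1, an adhesion molecule of high endothelial venules, at 0 to 0.322 CPM. Chst4, a sulfotransferase of high endothelial venules, was at 5.34, 1.79 and 7.40 CPM in controls and 0.367, 1.13, 0.439 and 1.03 CPM in knockouts. It was higher in every control than in every knockout and was not called (log2 -2.69, SE 0.66, unadjusted p = 0.00477, edgeR adjusted p = 0.968). DESeq2 called it (log2 -2.66, adjusted p = 0.0141). The part of these genes in the lymphocyte values was not tested.

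Levels of the members differed widely between fractions. In male controls all 33 genes were called higher in SVC than in adipocytes, where 44.2% of the 17251 genes tested were called higher and 32.8% lower. Of the 33, 21 fell below the filter on low counts when the adipocyte libraries were fitted without SVC. Such genes enter this test mostly through their SVC counts, so their call was nearly fixed in advance. The count of 33 is therefore a description and not a test against that share. With library totals in place of scaling factors the calls over all genes became 9735 higher and 3809 lower from 7632 and 5661, and the median of all genes moved from 0.29 to 0.85 on the log2 scale, while all 33 members were again called higher. The members had a median log2 fold change of 6.70, or 6.63 with Ncr1, which had no adipocyte count, set to its bound. DESeq2 called 32 of them and 74.3% of all genes. Every member was also called higher without SVC control replicate 1, which moved Klrb1c from 8.37 to 5.26.

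**Figure D3:**
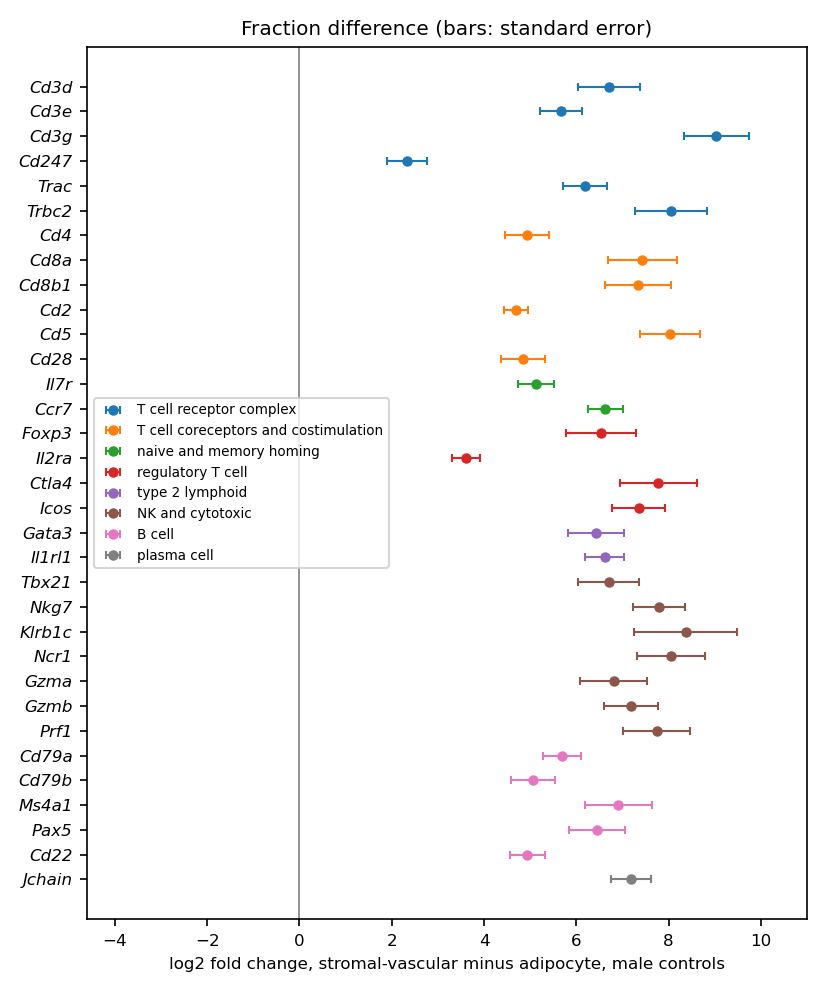
Log2 fold change of each gene between SVC and adipocytes of male controls, with bars of 1 standard error, coloured by class. All 33 lie above 0, from 2.33 for Cd247 to 9.04 for Cd3g, and the value of Ncr1, which had no adipocyte count, depends on the prior count of the fit.

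The level left in adipocyte libraries was small but uneven among the genes. The mean level in male control adipocytes had a median over the 33 genes of 0.619% of that in control SVC. The T cell receptor genes Cd3g, Cd3d and Trbc2 had 1, 5 and 2 counts in the 6 control adipocyte libraries together, and Cd3e averaged 0.128 CPM there against 9.90 CPM in SVC. On pooled counts over library totals, Cd3g had a ratio of 1237 (95% interval 221 to 48922, counting error only) and Trbc2 one of 504 (139 to 4172). On the log2 scale these ratios are 10.3 and 8.98, while the scaled edgeR fit gave 9.04 (SE 0.71) and 8.05 (SE 0.78). Ncr1 had 0 counts in all 23 adipocyte libraries and was at least 81.2-fold higher in SVC, with a floor of 3 counts over the group.

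Cd247 was the exception in its complex. It was at 0.678 to 1.81 CPM in the 6 male control adipocyte libraries, where Cd3e was at 0.0454 to 0.226 CPM, and its adipocyte mean was 13.9% of the SVC mean against 0.0807% for Cd3g. Its log2 fold change between fractions was 2.33 (SE 0.44, edgeR adjusted p = 0.000146), against 5.67 (SE 0.46) for Cd3e. Il2ra came next, with 1.09 to 1.76 CPM in adipocytes, 5.66% of its SVC mean and a log2 fold change of 3.61 (SE 0.30, edgeR adjusted p = 8.84e-09). The pan-leukocyte genes Ptprc and Laptm5 had 2.73% and 6.30%.

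The genotype effects in SVC and adipocytes were compared directly. None of the 33 members was called for a difference between fractions (edgeR, 0 of 17251 genes called, 0%). At an unadjusted p below 0.05 there were 1149 genes, and DESeq2 called 22 genes (0.128%), no member among them. The estimates ran from -2.08 for Cd3g (SE 0.99) to 1.20, and rested on very few adipocyte counts. For Ncr1, which had no adipocyte count, the SE was 287. For members with almost no adipocyte counts this test could hardly give a call, so it does not show equal effects.

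In adipocytes 12 of the 33 members passed the filter on low counts: Cd247, Trac, Cd4, Cd2, Cd28, Il7r, Ccr7, Il2ra, Il1rl1, Cd79a, Cd79b and Jchain. None was called for genotype in males (0.0703% of 14227 genes called) or females (0.471%), or for a difference in effect between the sexes (0.0141%). By DESeq2 the counts over all genes were 159, 206 and 23 (1.12%, 1.45% and 0.162%), again with no member. At an unadjusted p below 0.05 there was 1 member in males and 3 in females, beside 1861 and 1469 of all genes. Il7r in males had the smallest p, with 0.317, 0.680 and 1.13 CPM as lowest, median and highest of 6 controls and 1.33, 0.869, 1.81, 2.50 and 1.08 CPM in knockout replicates 1 to 5. The labels overlapped, and the log2 fold change was 1.04 (SE 0.37, unadjusted p = 0.0103, edgeR adjusted p = 0.231). In females Il1rl1, Cd2 and Cd79b had log2 fold changes of -0.85 (SE 0.35), -0.86 (SE 0.39) and -1.08 (SE 0.49), with edgeR adjusted p = 0.375, 0.449 and 0.444. Pan-leukocyte genes (7) in the same libraries summed to 27.4 to 67.7 CPM in female controls and 12.1 to 42.9 CPM in female knockouts, and their part in these values was not tested.

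Between control adipocytes of females and males, 7 of the 12 members were called, 5 lower and 2 higher in females, where 43.8% of the genes tested were called (23.7% higher, 20.1% lower). DESeq2 called the same 7, with 45.2% of all genes. Il7r fell by 2.59 on the log2 scale (SE 0.49, edgeR adjusted p = 0.000198), with a lowest, median and highest value of 0.317, 0.680 and 1.13 CPM in males and 0.0460, 0.0930 and 0.278 CPM in females. The ranges did not overlap, but the female values rest on 1 to 6 counts per library. Il2ra fell by 0.82 (SE 0.23, edgeR adjusted p = 0.00573), from 1.09, 1.47 and 1.76 CPM to 0.507, 0.886 and 1.06 CPM, again with no overlap. The share of all genes tested whose ranges did not overlap between these groups was not computed. The lack of overlap is therefore not shown to be unusual among genes here. Cd28 and Cd4 fell by 1.31 (SE 0.48, edgeR adjusted p = 0.0304) and 1.21 (SE 0.49, 0.0480), and Cd247 by 0.96 (SE 0.38, 0.0427), and in these the ranges overlapped. The calls of Cd247, Cd4 and Cd28 were lost in 8 of 17, 9 of 14 and 3 of 14 alternatives. Cd4 and Cd28 did not pass the filter on low counts in 3 further alternatives, which are not among those 14.

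Pan-leukocyte and macrophage genes were lower in the female controls. All 7 pan-leukocyte genes were called lower, with a sum of 76.3 to 135 CPM in male and 27.4 to 67.7 CPM in female controls. Of 14 macrophage and monocyte genes tested 9 were called lower, with sums of 635 to 1213 and 304 to 600 CPM. Granulocyte and mast cell genes went the other way, with sums of 5.20 to 8.44 CPM in male and 10.8 to 13.9 CPM in female controls and 1 of 4 tested genes called higher. So did preadipocyte and fibroblast genes, with sums of 449 to 653 CPM in male and 791 to 1275 CPM in female controls and 5 of 10 called higher. Of 5 erythroid genes tested 2 were called higher. The part of these lists in the lower values of Il7r, Il2ra, Cd28, Cd4 and Cd247 was not tested. The share of each depot in a library is not given, so depot and sex cannot be told apart here.

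The 2 genes called higher in females were Trac and Jchain. Trac was at 0.0452, 0.0677 and 0.227 CPM as lowest, median and highest in male controls and 0.0922, 0.392 and 2.40 CPM in female controls, and reached 2.96 CPM in female knockouts. It rose by 2.94 on the log2 scale (SE 0.79, edgeR adjusted p = 0.00432), and by 2.13 without female replicate 1, which held 2.40 CPM. The genes Cd3d, Cd3e, Cd3g and Trbc2 did not pass the filter and were not tested here. In the 6 female and 6 male controls they had 6 and 5, 10 and 17, 4 and 1, and 9 and 2 counts in all, where Trac had 97 and 12. Dad1, the neighbour of the receptor α locus on the other strand, was at 84.6 to 105 CPM in male and 86.5 to 129 CPM in female control adipocytes, and the strand setting of the authors' counting is not given in the sources used here. Jchain was at 0.907, 1.36 and 2.04 CPM in males and 0.419, 3.83 and 4.63 CPM in females (log2 1.10, SE 0.44, edgeR adjusted p = 0.0492). Female replicate 6 held the lowest and replicate 4 the highest of all 12 values, and the call was lost in 12 of 17 alternatives.

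**Figure D4:**
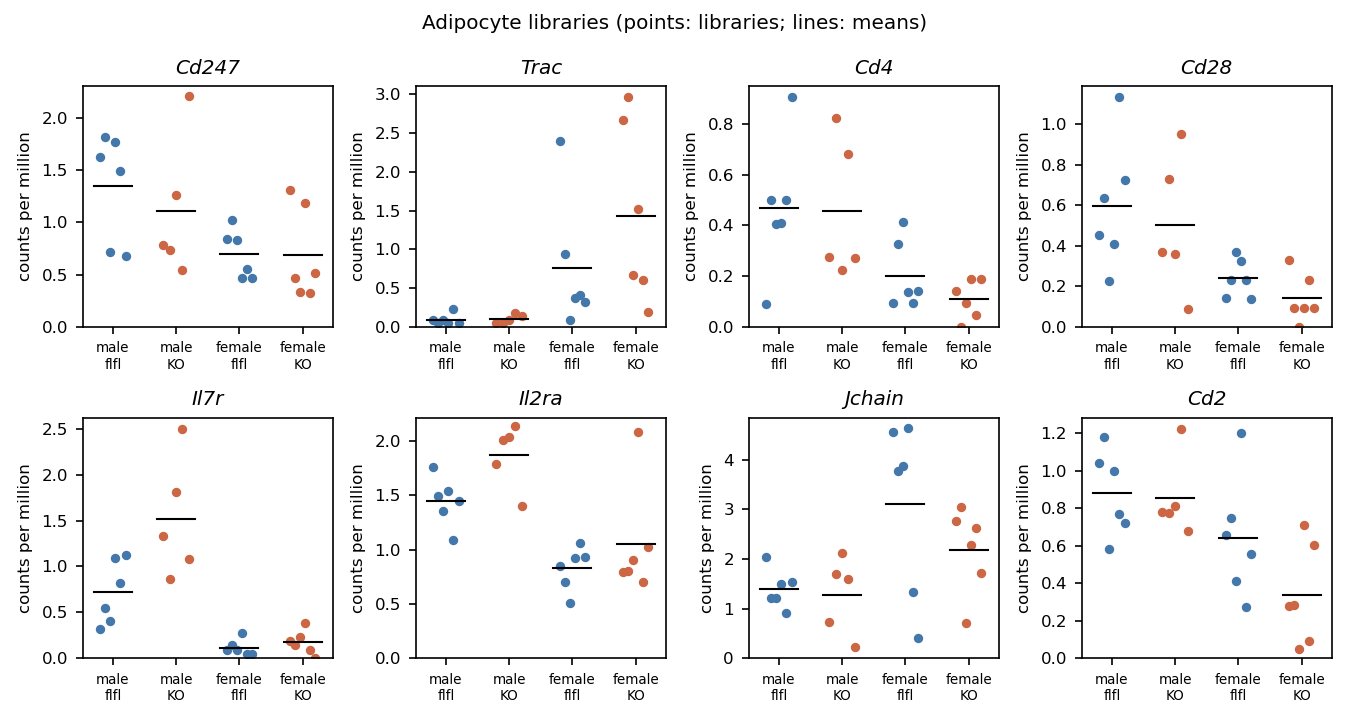
Level in CPM of the 7 genes called between female and male control adipocytes, and of Cd2, in the 23 adipocyte libraries, with points for libraries and lines for group means. Il7r and Il2ra of the female controls lie below all male controls, Trac is spread from 0.0922 to 2.40 CPM in female controls, and the genotype labels overlap within each sex.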

How the data were processed

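RNA was measured in 30 mouse libraries in 6 groups of sex, fraction and genotype label. The values used are raw read counts per gene, deposited by the authors as whole numbers. The submitters' processing notes name STAR 2.7.11a, FastQC 0.12.1, DESeq2 and, as the build, mm39. How reads were counted, on which strand and with which annotation is not given in the sources used here. Deposited rlog values of the authors were left aside. Every per-sample column of the count table belonged to a library (0 others).

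Tests were made with edgeR 4.0.16 (quasi-likelihood, robust) under R 4.3.3 on the deposited counts. Libraries were scaled by TMM, and filterByExpr with a minimum count of 10 removed low genes. The SVC (7), adipocyte (23) and male (18) libraries were each fitted as a set, and p-values were adjusted by Benjamini-Hochberg over all genes tested. CPM are counts scaled to the library total. Levels per kb used the union of exons of each gene in GENCODE vM21, by gene identifier. Intervals of 95% and the floor of 3 counts cover counting error only. The closest pair of libraries in a group had a chi-square of 11.9 per degree of freedom, so none was counted as a duplicate.

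Named were all 33 members, and of the related lists the called genes or the 2 of smallest p in SVC, while lists of other cells are given as sums. A gene that this rule picks is not reported here. Members and lists were chosen with earlier results of these data known, and the epididymal and spermatid lists after seeing the values. Alternatives were other scalings, no filter, DESeq2 1.42.0, the replicate number (across fractions, the number in the column name) as a block, other sets of libraries in the fit and leaving out each library. The procedure was checked on simulated counts that had a single fixed spread for all genes and large changes in well-counted genes only. That check does not tell how small a change could have been called in these libraries.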

Additional observations from a re-analysis of the deposited data

Results flagged for a closer look

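Of 81 sets of 4 to 6 libraries examined gene by gene, 7 held 1 library far from the rest by Dixon's criterion, and chance alone flags about 1 in 20 such sets. Groups of 3, such as the control SVC with the Klrb1c value, were not examined in this way. In knockout SVC, replicate 1 was high for Trbc2, at 8.82 CPM against 5.60 to 6.05 CPM in the other 3, and for Cd8b1, at 4.13 CPM against 1.73 to 1.84 CPM. Knockout SVC replicate 3 was high for Jchain, at 315 CPM against 176 to 179 CPM. In adipocytes, Trac was at 0.227 CPM in male control replicate 5 against 0.0452 to 0.0904 CPM in the other 5, and at 2.40 CPM in female control replicate 1 against 0.0922 to 0.934 CPM. Cd2 was at 1.23 CPM in male knockout replicate 4 against 0.677 to 0.813 CPM, and Il2ra at 2.08 CPM in female knockout replicate 4 against 0.701 to 1.03 CPM.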

How the results depend on the processing

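No member was called for genotype in SVC, in adipocytes of either sex or in either difference of effects, under any alternative run. In SVC, Klrb1c had a value in 13 alternatives, where the other members had 14. All 33 members were called higher in SVC than in adipocytes under every alternative but DESeq2, with 32, where Klrb1c had no adjusted p. Between female and male control adipocytes the counts moved. With 2 members higher, 1 was higher with RLE size factors, without the filter and with the replicate block, and 1 to 2 with a library left out. With 5 lower, 2 were lower with the replicate block and 2 to 5 with a library left out. Il7r, Il2ra and Trac kept their call in 17 of 17 alternatives. Without female replicate 4, Ccr7 (-1.45) and Cd79b (-1.06) were also called lower, and Ccr7 without male replicate 4 (-1.25). Cd22, which the filter on low counts removed, was called without it (-2.30). The cause of these moves was not tested. Uncalled members changed sign in 67 of 461 values for SVC, most often without control replicate 3, and in 17 of 194, 5 of 209, 16 of 330 and 81 of 787 values for the male, female, sex and fraction comparisons of genotype. Over all genes, the counts of calls moved from 0 to 76 with DESeq2 and 1 with the replicate block in SVC, from 10 to 159 and from 67 to 206 with DESeq2 in male and female adipocytes, and from 2 to 23 and 0 to 22 in the differences of effects. With a library left out they ran from 0 to 1 in SVC, 4 to 332 in males and 32 to 89 in females. With the 18 male libraries fitted together 3 genes were called in SVC, and with the 2 groups alone 6 in males and 26 in females. Replicate numbers are not stated to mark shared animals, and not every same-numbered pair correlated above 0.1: r ran from -0.28 to 0.35 in SVC, -0.16 to 0.17 in male and -0.06 to 0.54 in female adipocytes, with 1 of 3, 1 of 5 and 4 of 6 pairs best with their own number. Across fractions, libraries were matched by the number in the column name (r -0.01 to 0.25, 5 of 6 best with their own), a hint from the data and not from the design. The replicate block changed no call of a member outside the comparison of sexes. Depth limits the adipocyte values, where 21 of 33 members fell below the filter. Of the related genes named in SVC, Chst4 was called in 1 alternative, DESeq2.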
